A study of Homo sapiens with 6 samples.

Results

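Septins are GTP-binding proteins that join into rods and filaments beneath the plasma membrane, at the cleavage furrow of dividing cells and along parts of the actin and microtubule networks. Human septins fall into 4 groups named after SEPT2, SEPT3, SEPT6 and SEPT7, and a rod takes its subunits from different groups: a SEPT2-type subunit, a SEPT6-type subunit, SEPT7 and, in the longer rods, SEPT9. Members of a group can replace each other at the same place in the rod. The GTPase CDC42 acts on septins through the Borg proteins (CDC42EP1 to CDC42EP5), effectors that bind septin filaments and whose hold on them is loosened by active CDC42. Several septin genes, SEPT2, SEPT5, SEPT6, SEPT9 and SEPT11 among them, are known as fusion partners of KMT2A (MLL) in leukemia.

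The genes described here are the 8 septins SEPT1, SEPT2, SEPT3, SEPT6, SEPT7, SEPT8, SEPT9 and SEPT11, out of 26485 entries in the deposited table. A spreadsheet has turned their symbols into dates there, so that SEPT9 stands as Sep-09 and SEPT11 as Sep-11. The table holds 28 entries with date-form names in all, some of which share a name. Sep-15 is one of them and is not a septin. The other 5 septin names are Sep-04, Sep-05, Sep-10, Sep-12 and Sep-14, which were left out. The members were taken by name from a list drawn up with the data in view, and were in effect chosen by their read counts, which separate them from the septins left out. The lowest members, SEPT1 (Sep-01) and SEPT3 (Sep-03), had 211 to 682 and 229 to 594 counts per library. SEPT4 had 9 counts over all 6 libraries, SEPT12 and SEPT14 had 1 each, and SEPT5 and SEPT10 had 0. All 8 members passed the filter on low counts and no other septin did.

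The cells were REH, an established human line from B-cell precursor acute lymphoblastic leukemia that carries the ETV6-RUNX1 fusion. They were given either 25 µM ML141, a small-molecule inhibitor of CDC42, or its solvent DMSO, for 24 h, with 3 RNA-seq libraries per group. The submitters describe the RNA as coming from 3 independent experiments in this one line. In such bulk samples fewer cells of a kind and less RNA per cell cannot be told apart. Libraries held 8284299 to 12308039 counts, of which the 8 septins made up 22619 to 35931. Of 9 B-cell precursor markers 8 lay above 1 CPM (TMM-scaled CPM, read counts relative to library size), the exception being VPREB1, with a count in 1 ML141 library only. Their summed level was 5920 to 6292 CPM in DMSO and 7731 to 8094 CPM in ML141, without overlap, and its part in the septin values was not tested. T-cell and erythroid markers were at or near 0. Among myeloid markers MPO, at 41.4 CPM in DMSO and 26.2 CPM in ML141, was the only one above 1 CPM, and of the fibroblast and epithelial markers only COL1A1 was, at 1.96 and 1.26 CPM. Whether the MPO reads came from a separate kind of cell, and any part of such cells in the septin values, was not tested.

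The stretches printed here lie before annotated starts of the septin with the largest rise, SEPT9, and of one of those with a large fall, SEPT11. They are RefSeq sequences (GRCh38.p14), cut to the bases that hold no GENCODE exon. RefSeq windows were found for 6 of the members, and SEPT1 and SEPT3 had no match. SEPT9 has 10 such windows and SEPT11 has 1. The SEPT9 stretch is chr17:77281249-77281409 on the + strand, before the first of its RefSeq starts. In GENCODE the SEPT9 gene begins at 77280569, so this stretch lies inside the annotated gene. The SEPT11 stretch is chr4:76949502-76949702 on the + strand, just before the GENCODE gene start at 76949703. Capitals mark GGGCGG or its reverse complement, the core of the GC box, where matches may overlap.
SEPT9: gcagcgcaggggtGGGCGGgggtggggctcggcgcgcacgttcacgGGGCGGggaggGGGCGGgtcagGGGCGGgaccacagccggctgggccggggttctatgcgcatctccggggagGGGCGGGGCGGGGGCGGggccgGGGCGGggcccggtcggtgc
SEPT11: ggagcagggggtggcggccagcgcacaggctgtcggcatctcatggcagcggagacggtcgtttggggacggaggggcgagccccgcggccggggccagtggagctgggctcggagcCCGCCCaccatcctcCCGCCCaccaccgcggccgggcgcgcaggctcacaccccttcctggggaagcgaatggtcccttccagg
Over the whole 250 bases before the start, both strands searched, this SEPT9 window held 9 matches of GGGCGG and the SEPT11 window held 3. It was the SEPT9 window with the most matches, and the others held 0 to 4. The motif occurs in 42.6% of the 35116 RefSeq windows of that length. Neither the SEPT11 window nor this SEPT9 window held CCAAT (in 32.0% of all windows), TATAAA (10.7%), CACGTG (6.35%), GTAAACA (2.98%), TGATGNAA (3.14%) or a CArG box (1.16%). Of the other SEPT9 windows, the one from 77287685 held 1 CCAAT and the one from 77475385 held 1 TATAAA. GC content was 80.4% for this SEPT9 window and 73.6% for SEPT11, against 57.2% over all windows. In the other SEPT9 windows it ran from 57.2% to 81.2%. The counts are per gene, so they do not say which of the SEPT9 starts was used.

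With ML141 the make-up of the septin mRNAs shifted towards SEPT9. SEPT9 (Sep-09) rose 2.17-fold and SEPT1 rose 1.74-fold, while SEPT3 (Sep-03) fell 2.34-fold, SEPT11 (Sep-11) 1.93-fold, SEPT8 1.54-fold, SEPT2 1.32-fold, SEPT7 1.23-fold and SEPT6 1.16-fold. By edgeR's quasi-likelihood test with Benjamini-Hochberg adjustment over 11454 genes, 2 members were higher and 6 lower at an adjusted p of 0.05. Of all genes tested, 54.4% passed in either direction, 26.7% higher and 27.7% lower. The median log2 fold change of the members was -0.35, beside 0.017 for all genes. In 8 of 8 members the CPM of the groups did not overlap, as in 61.2% of all genes tested. With upper-quartile factors the median of all genes was 0.119, and with library totals 0.19. These scalings took the share of higher genes among those called from 49.1% to 59.5% and 66.1%, and left 2 septins higher and 4 lower, with SEPT6 and SEPT7 no longer called. The direction of the summed level of the 8 septins depends on the scaling. In TMM-scaled CPM it was 2933, 2773 and 2799 in DMSO and 2749, 2709.7 and 2746 in ML141, lower in every ML141 library. As a share of all counts it was 0.273%, 0.259% and 0.268% in DMSO and 0.284%, 0.292% and 0.294% in ML141, higher in every ML141 library.

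**Figure D1:**
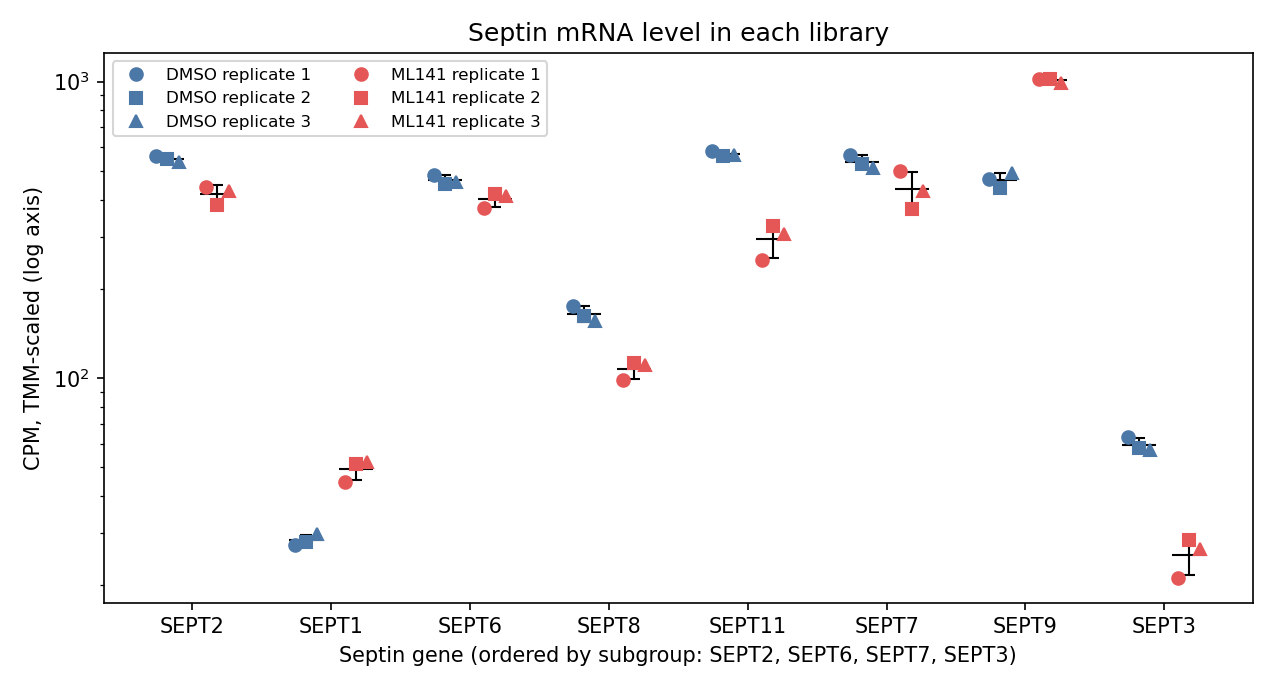
Level of each septin in every library, in TMM-scaled CPM on a log axis, with DMSO in blue, ML141 in red, a marker shape per replicate number and black bars for the mean ± SD of 3 libraries. SEPT9 and SEPT1 lie higher in all ML141 libraries, and the other 6 septins lie lower in all of them.

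SEPT9 belongs to the SEPT3 group, takes the place next to SEPT7 in long rods and binds microtubules through its long isoforms. The gene lies on chromosome 17 from 77280569 to 77500596 on the + strand (hg38) and has 16 transcripts with 14 different 5′ ends in the GENCODE basic set. Its CPM in DMSO replicates 1, 2 and 3 was 470.1, 438 and 489.7, and in ML141 replicates 1, 2 and 3 it was 1021, 1018 and 986. The ML141 libraries lay close together, all above every DMSO library. The means were 466 ± 26.3 and 1009 ± 19.5 CPM (SD, n = 3), and the edgeR log2 fold change was 1.11 ± 0.0775 (SE), with an adjusted p of 5.23e-07. In the authors' deposited table the log2 fold change of SEPT9 is 1.11.

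SEPT3, the other member of that group that was tested, is best known from neurons. It lies on chromosome 22 from 41969475 to 41998221 on the + strand. Its CPM was 63.4, 57.8 and 57.3 in DMSO and 21.2, 28.5 and 26.4 in ML141. SEPT3 thus moved against SEPT9, with ML141 replicate 1 the lowest library. The log2 fold change was -1.22 (SE 0.121, edgeR adjusted p = 6.56e-06), with means of 59.5 ± 3.39 and 25.4 ± 3.75 CPM. Within a library there were 7.42 to 8.55 SEPT9 counts per SEPT3 count in DMSO and 35.7 to 48.1 in ML141, a ratio that does not depend on the scaling of libraries.

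In the SEPT2 group the members also moved apart. SEPT2, a subunit of most rods, lies on chromosome 2 from 241315100 to 241354027 (+ strand). Its CPM was 562, 549 and 535 in DMSO and 440.5, 384 and 428 in ML141. The fall was small but larger than the spread, at -0.40 on the log2 scale (SE 0.0792, edgeR adjusted p = 0.00123). With library totals it was -0.22 (adjusted p = 0.0178). SEPT1, which is expressed in lymphocytes, lies on chromosome 16 from 30378133 to 30395991 (- strand). Its CPM was 27.4, 27.9 and 29.7 in DMSO and 44.5, 51.4 and 52.0 in ML141. SEPT1 was thus higher in each ML141 library, with means of 28.3 ± 1.23 and 49.3 ± 4.20 CPM, or 0.80 on the log2 scale (SE 0.106, edgeR adjusted p = 6.32e-05). SEPT1 counts were 0.0486 to 0.0555 per SEPT2 count in DMSO and 0.101 to 0.134 in ML141.

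The SEPT6 group holds septins that bind GTP without hydrolysing it, and 3 of them were present, all lower with ML141 but by different amounts. SEPT11 lies on chromosome 4 from 76949703 to 77040384 (+ strand). Its CPM was 582, 560.3 and 563 in DMSO and 249.7, 327 and 305 in ML141. Of the ML141 libraries replicate 1 was the lowest. The log2 fold change was -0.95 (SE 0.0977, edgeR adjusted p = 8.69e-06), with means of 568 ± 11.7 and 294 ± 39.7 CPM.

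SEPT8, on chromosome 5 from 132750817 to 132807241 (- strand), had 176, 162 and 156 CPM in DMSO and 98.5, 112 and 110.4 CPM in ML141. Its log2 fold change was -0.62 (SE 0.0864, edgeR adjusted p = 9.2e-05). SEPT6, on the X chromosome from 119615724 to 119693370 (- strand), had 485, 452 and 459 CPM in DMSO and 374, 417 and 409.7 CPM in ML141. The DMSO and ML141 libraries were separate by a narrow gap, and the log2 fold change was -0.22 (SE 0.0773, edgeR adjusted p = 0.0323). The SEPT6 call rests on small margins: it was lost when any library but ML141 replicate 2 was left out (adjusted p = 0.055 to 0.111), with no low-count filter (0.0685), with upper-quartile factors (0.249) and with library totals (0.664, where the log2 fold change was -0.04). Within a library there were 0.807 to 0.833 SEPT6 counts per SEPT11 count in DMSO and 1.28 to 1.499 in ML141.

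SEPT7 is the only functional member of its group and sits in every kind of rod. It lies on chromosome 7 from 35800932 to 35907105 (+ strand). Its CPM was 567, 526 and 510.1 in DMSO and 499, 372 and 428 in ML141. ML141 replicate 1 lay just under the lowest DMSO library, and the SD in ML141 was 63.7 CPM around a mean of 433, against 29.3 around 534 in DMSO. The log2 fold change was -0.30 (SE 0.103, edgeR adjusted p = 0.0255). This call was lost without DMSO replicate 1 (adjusted p = 0.0982), DMSO replicate 2 (0.065), ML141 replicate 2 (0.0697) or ML141 replicate 3 (0.0758), with upper-quartile factors (0.0711) and with library totals (0.237, where the log2 fold change was -0.13). In the authors' deposited table the adjusted p is 0.0196 for SEPT7 and 0.0246 for SEPT6.

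**Figure D2:**
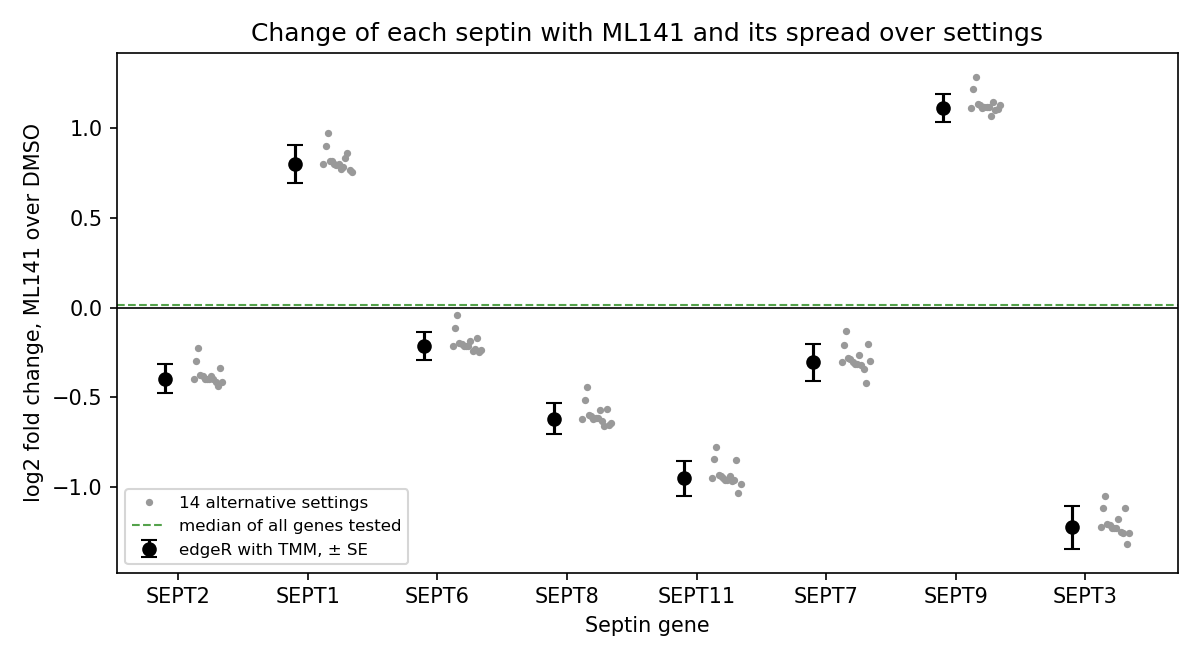
Log2 fold change of each septin, ML141 over DMSO: black points with bars are edgeR values with TMM factors ± SE, grey points the values under 14 alternative settings, and the dashed line the median of all genes tested. SEPT9 stays above 1 and SEPT3 below -1 throughout, while SEPT6 reaches -0.04 with library totals.

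The make-up of the septin counts shows the shift without any scaling between libraries. SEPT9 took 16.03%, 15.8% and 17.5% of the counts of the 8 septins in DMSO and 37.2%, 37.6% and 35.9% in ML141. SEPT11 went the other way, from 19.8%, 20.2% and 20.1% to 9.09%, 12.1% and 11.1%. The mean share of SEPT2 was 19.4% ± 0.38 in DMSO and 15.3% ± 0.97 in ML141 (SD, n = 3). That of SEPT7 was 18.8% ± 0.57 and 15.8% ± 2.22, and ML141 replicate 1, at 18.1%, lay close to the DMSO library with the lowest share, at 18.2%. The mean shares of SEPT6, SEPT8 and SEPT3 were 16.4%, 5.80% and 2.10% in DMSO and 14.6%, 3.91% and 0.928% in ML141, and that of SEPT1 was 1.00% and 1.80%. By group, the SEPT6-type septins held 42.3% ± 0.17 of counts in DMSO and 29.3% ± 2.73 in ML141. The SEPT3-type septins held 18.5% ± 0.89 and 37.8% ± 0.88. The shares in a library add up to a fixed whole, so a larger SEPT9 share by itself lowers those of the other septins. The lower shares of single septins and of the SEPT6 group therefore do not on their own show a fall of these mRNAs. Ratios between septins other than SEPT9, given next, are free of this effect.

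**Figure D3:**
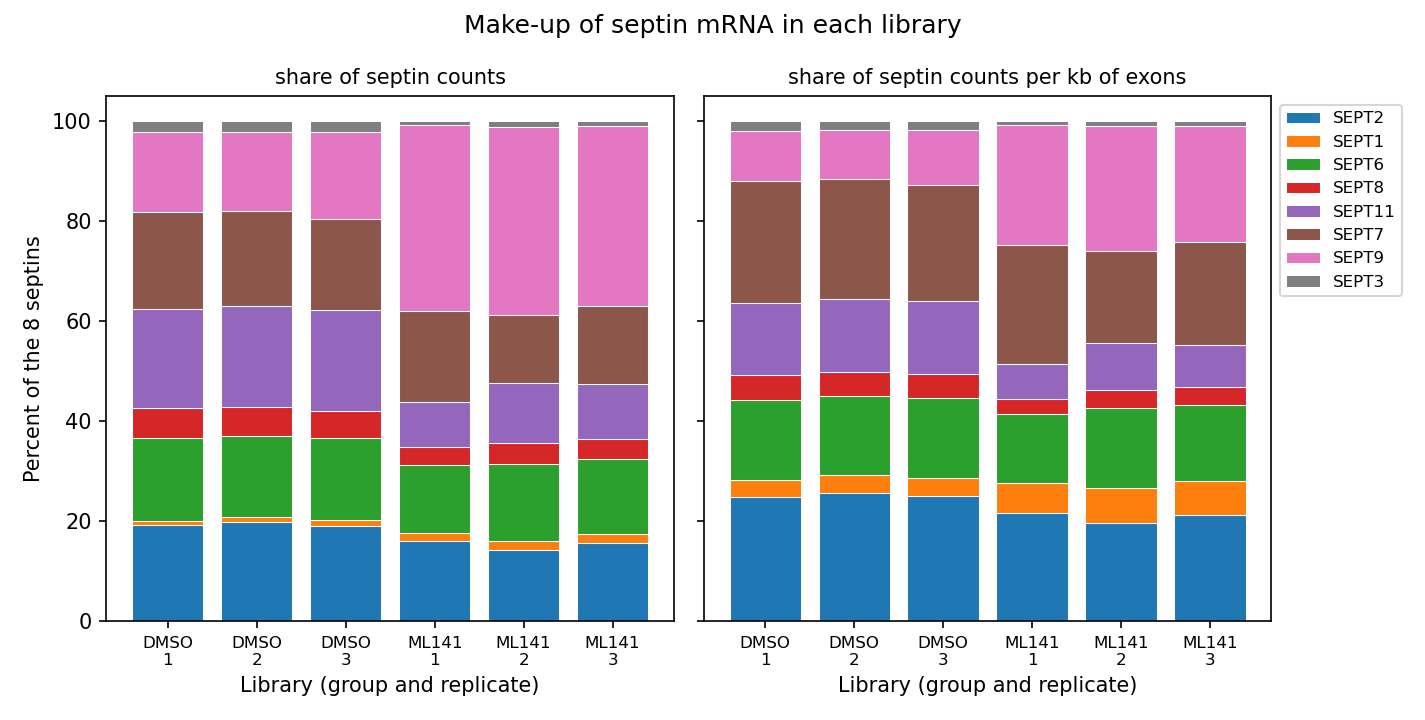
Percent of each septin in the sum of the 8, per library, from raw counts (left) and from counts per kilobase of exons (right). The SEPT9 segment is more than 2 times as wide in the ML141 libraries in both panels, and the SEPT11 segment is narrower.

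Ratios between members within a library were compared for all 28 pairs. In 24 pairs the values of the groups did not overlap, beside 61.4% of all pairs of tested genes with a count in each library. The 28 pairs share 8 genes and are not independent. The 4 pairs that overlapped were SEPT6 with SEPT7, SEPT6 with SEPT2, SEPT7 with SEPT2 and SEPT2 with SEPT8. For the core subunits the mean log2 ratio of SEPT7 over SEPT2 was -0.04 ± 0.045 in DMSO and 0.045 ± 0.119 in ML141 (SD). That of SEPT6 over SEPT7 was -0.20 ± 0.04 in DMSO and -0.10 ± 0.293 in ML141. In ML141 replicates 1, 2 and 3 the SEPT6 over SEPT7 value was -0.414, 0.167 and -0.063, against -0.226 to -0.154 in DMSO. The ratio of SEPT9 to SEPT7, its neighbour in the rod, was 0.829, 0.832 and 0.960 in DMSO and 2.05, 2.74 and 2.30 in ML141, a change of 1.43 on the log2 scale. SEPT9 over SEPT1, the pair that rose, changed by 0.32 on the log2 scale, and SEPT11 over SEPT3, the pair with the largest falls, by 0.28. These ratios set counts of genes of different length side by side, so only their change between groups can be read.

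**Figure D4:**
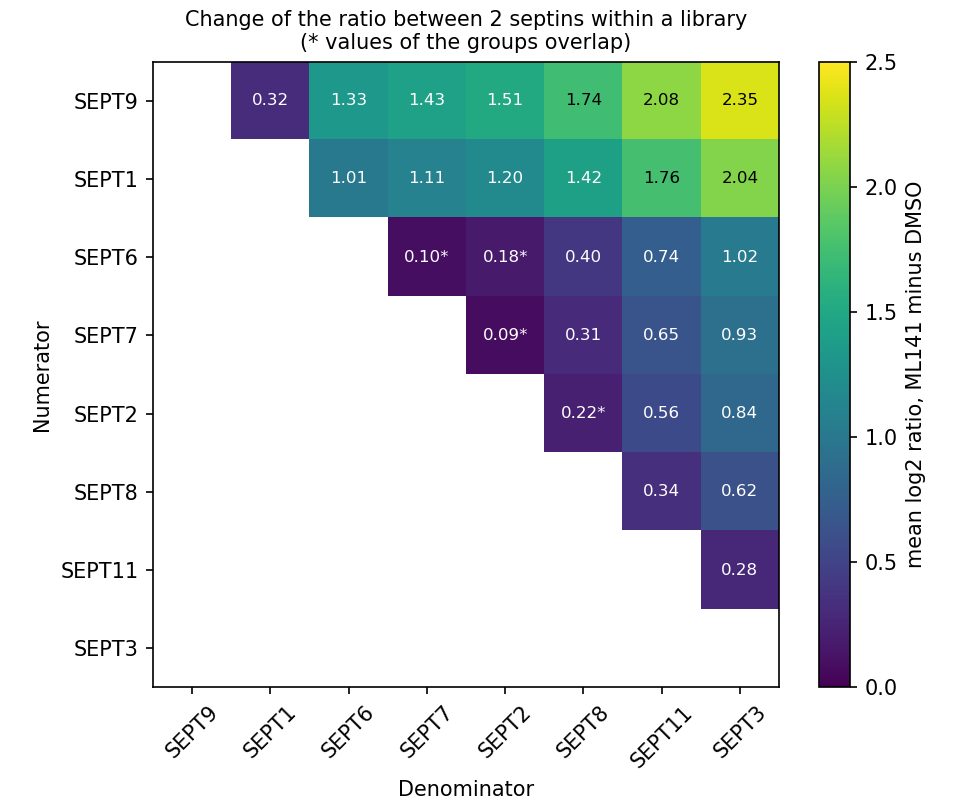
Change between groups of the log2 ratio of each septin in rows to each septin in columns, as the mean over 3 ML141 libraries minus the mean over 3 DMSO libraries, with a star where the libraries of the groups overlap. Values run from 0.085 for SEPT7 over SEPT2 to 2.35 for SEPT9 over SEPT3, and the stars sit among SEPT6, SEPT7, SEPT2 and SEPT8.

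Levels were compared between septins per kilobase of exon. In DMSO the order by CPM per kilobase of all annotated exons was SEPT2 (128 ± 3.17), SEPT7 (121 ± 6.65), SEPT6 (81.4 ± 3.03), SEPT11 (74.4 ± 1.53), SEPT9 (52.1 ± 2.94), SEPT8 (24.7 ± 1.53), SEPT1 (17.8 ± 0.77) and SEPT3 (9.16 ± 0.52). SEPT2 and SEPT7 overlapped there, and no other neighbours did. In ML141 the order was SEPT9 (113 ± 2.18), SEPT7 (98.1 ± 14.4), SEPT2 (97.4 ± 6.96), SEPT6 (70.1 ± 4.01), SEPT11 (38.4 ± 5.19), SEPT1 (31.0 ± 2.64), SEPT8 (16.1 ± 1.12) and SEPT3 (3.90 ± 0.58), with SEPT9 overlapping SEPT7 and SEPT7 overlapping SEPT2. The order depends on the length chosen, since SEPT9 has 8947 exon bases but a median transcript of 3026. Per kilobase of median transcript SEPT11 was highest in DMSO (217 ± 4.47) and SEPT9 (154 ± 8.68) came after SEPT6 (173 ± 6.43) and SEPT2 (165 ± 4.07). On that scale SEPT6 overlapped SEPT2, and SEPT2 overlapped SEPT9. On that scale too SEPT9 was highest in ML141 (333 ± 6.45), above SEPT6 (149 ± 8.504) with no overlap.

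Reads can be shared with other genes in some places. Of the exon bases of SEPT8 9.46% lie on the opposite strand from CCNI2, which had 0 counts in all libraries. SEPT1 shares 6.41% with AC116348.4 on the same strand, which has no entry of that name in the deposited table. SEPT1 also shares 6.09% with ZNF48 on the opposite strand. ZNF48 had 34.1 ± 0.36 CPM in DMSO and 38.0 ± 3.08 CPM in ML141 (edgeR adjusted p = 0.222). SEPT2 shares 5.42% with HDLBP, also on the opposite strand, at 499.9 ± 32.99 and 461 ± 17.6 CPM (adjusted p = 0.226). TruSeq RNA v2 libraries carry no strand mark, so a read over these bases can come from either gene. Whether such reads were counted for either gene was not tested. AC111182.1 covers 3.53% of SEPT9 exon bases on the opposite strand and has no entry of that name in the deposited table. Of the 50-base words in SEPT7 transcripts 7.06% occur in another gene's transcripts, most often SEPT7P2, a transcribed pseudogene with 2.00% of them. SEPT7P2 had 13.0 ± 1.44 CPM in DMSO and 12.2 ± 1.08 CPM in ML141 and did not pass the test (adjusted p = 0.608). No 50-base word was shared between any of the 8 members.

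Among the Borg genes, which link CDC42 to septins, 3 of 5 were tested, 2 rose and none fell, where 26.7% of all genes tested were higher and 27.7% lower. CDC42EP3 went from 1.43 ± 0.13 to 17.8 ± 6.81 CPM, which is 3.61 on the log2 scale (SE 0.329, edgeR adjusted p = 3.67e-06), and CDC42EP2 from 3.79 ± 0.40 to 6.34 ± 0.78 CPM, at 0.74 (SE 0.198, adjusted p = 0.00752). CDC42EP4 had 3.75 ± 0.49 and 3.20 ± 0.59 CPM (adjusted p = 0.438). CDC42EP1 and CDC42EP5 had 0 counts, which allows up to 0.226 to 0.389 CPM per library. CDC42 itself had 277 ± 2.502 CPM in DMSO and 202 ± 10.8 CPM in ML141 and fell by 0.46 on the log2 scale (SE 0.0751, edgeR adjusted p = 0.000293). With library totals the CDC42 value was -0.29 (adjusted p = 0.00427). AL031281.2, which has no entry of that name in the deposited table, covers 62.6% of the CDC42 exon bases.

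Of 17 proteins that bind, anchor or modify septins, 16 were tested, of which 7 genes rose and 9 fell (median -0.35 on the log2 scale); KIF17 was too low to test. Of all genes tested, 26.7% were higher and 27.7% lower. ANLN, the anillin that recruits septins to the furrow, fell by 1.32 (SE 0.123), the non-muscle myosin MYH10 by 1.02 (SE 0.0975) and the mitotic kinase CDK1 by 1.27 (SE 0.142), all on the log2 scale. MYH9, the other main non-muscle myosin, rose by 0.30 (SE 0.0896, adjusted p = 0.0138; 0.0689 without DMSO replicate 1, and a rise of 0.47 with library totals), and RTKN, which binds SEPT9, rose by 0.81 (SE 0.163, adjusted p = 0.00128). The counts of this list depend on scaling and on 1 library: 5 were lower with upper-quartile factors or library totals, and 4 were higher and 5 lower without DMSO replicate 2. Of 21 genes of the cytokinetic ring, spindle midzone and abscission, 20 were tested, of which 1 rose, 14 fell and 5 (ROCK1, MYL12A, MYL12B, PDCD6IP and VPS4A) did not pass, with a median of -0.68, beside the same 26.7% higher and 27.7% lower of all genes. The number lower was 12 with library totals, 13 with upper-quartile factors, and 16 with the replicate block or without ML141 replicate 1. The formin DIAPH3 fell by 1.36 (SE 0.126), the exchange factor ECT2 by 0.94 (SE 0.109) and the midzone crosslinker PRC1 by 0.96 (SE 0.118) on the log2 scale. The gene that rose was TSG101, an ESCRT subunit, at 0.53 (SE 0.130). ROCK1, a kinase, at 0.21 (SE 0.089, adjusted p = 0.063), was also called higher with upper-quartile factors, library totals, no filter, the stricter filter or the replicate block (adjusted p = 0.0216), and without ML141 replicate 2 (adjusted p = 0.0146).

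**Figure D5:**
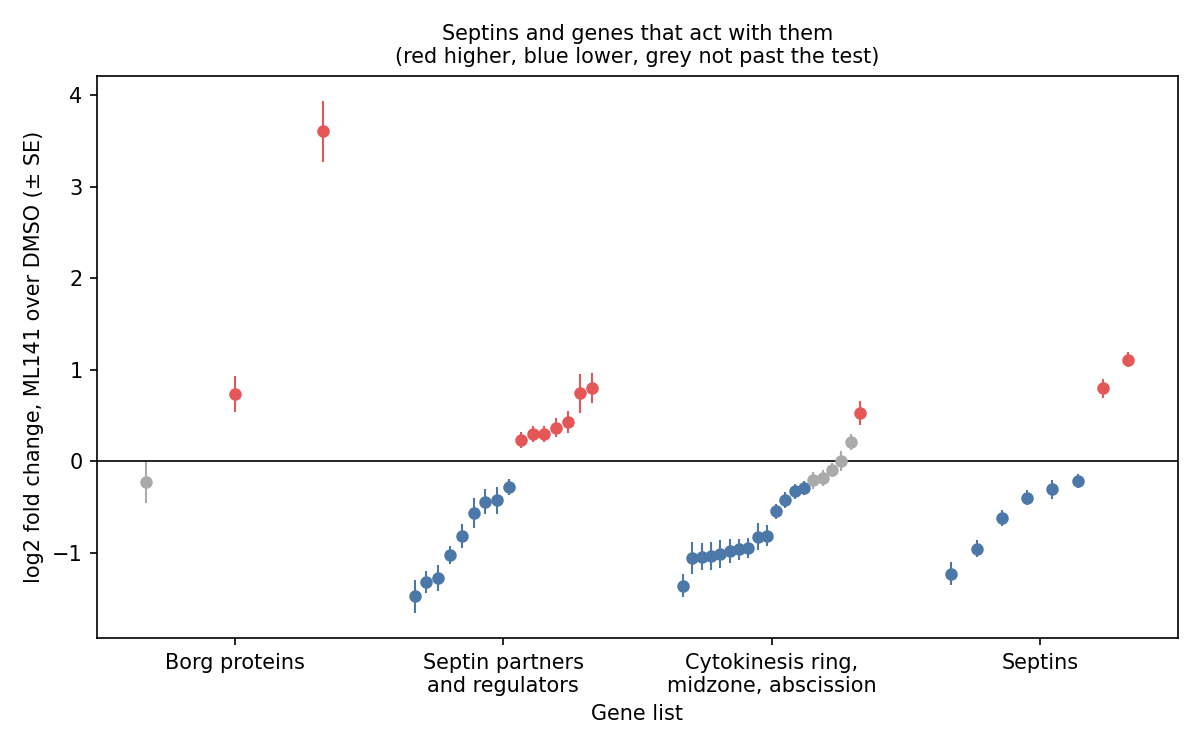
Log2 fold change ± SE of every tested gene in the 3 lists of genes that act with septins and of the 8 septins, with red for higher, blue for lower and grey for not past the test. CDC42EP3 stands highest at 3.61, and most genes of the cytokinesis list lie below 0.

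The genes whose change over the 6 libraries was closest to that of SEPT9, by the root mean square difference of log2 CPM from the DMSO mean, were LRP1 (0.051), RHOU (0.054) and PSMD5-AS1 (0.059). The search covered 9689 genes whose mean reached 5 CPM. For SEPT3 they were TYRO3 (0.053), FAM57A (0.053) and NOCT (0.064). Of the other date-form entries, 8 were tested. Among these 1 was higher (Mar-08, at 0.60 on the log2 scale, edgeR adjusted p = 0.0148) and 0 were lower, where 54.4% of all genes tested were called. Sep-15 had 244 ± 22.1 CPM in DMSO and 228 ± 32.4 CPM in ML141 (edgeR adjusted p = 0.45).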

How the data were processed

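RNA was measured in 6 REH libraries, 3 per group, prepared with the TruSeq RNA v2 kit per the labels' protocols. The authors deposited raw counts, as whole numbers for each gene symbol. Per the submitters' processing notes the build was hg38 and the tools named are DESeq2, featureCounts, Picard, Bowtie2, Trimmomatic and bcl2fastq 2.19. Annotation and strand setting: not given in the sources used here. The deposited table also holds normalized counts that the authors rounded (a score here) and the means of these, a signal by the authors; neither was used. The authors' deposited log2 values and adjusted p-value are quoted only where named, and their linear ratio is not used. Groups and replicate numbers came from the sample titles, and columns were matched through the sample descriptions.

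Genes were kept with filterByExpr (minimum count 10, minimum total 15), scaled with TMM and tested with edgeR 4.0.16 (glmQLFit, glmQLFTest, R 4.3.3) with group as the only term, 2-sided, adjusted over all 11454 genes. SE is the size of the log2 fold change over the square root of F. Limits for 0 counts use 3 counts and cover counting error only. The design text names 3 independent experiments, and p-values measure the spread between these libraries. Each pair of replicates differed by more than sampling noise (chi-square per degree of freedom 2.90 to 18.4). Exon lengths, positions and overlaps came from GENCODE release 29 (GRCh38).

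Named genes were the 8 members, CDC42, the 5 Borg genes, the 3 called genes with the smallest p in each other list, and the 3 genes most like the extreme members; MYH9, RTKN, TSG101, the cytokinesis genes not called, and Mar-08 were added after their values were seen. The members and lists were chosen with earlier results of these data known. Alternatives tried were scaling by upper quartile, by library totals or by DESeq2 size factors, no or a stricter filter, DESeq2 1.42.0 (Wald), voom in limma 3.58.1, the replicate number as a block and each library left out.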

Additional observations from a re-analysis of the deposited data

How the results depend on the processing

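Of 112 values of single septins under an alternative, 98 kept their direction and their side of the threshold and 14 kept the direction but were no longer called, all of them of SEPT6 or SEPT7. SEPT1, SEPT2, SEPT3, SEPT8, SEPT9 and SEPT11 were called under each of the 14 alternatives. Leaving out 1 library gave 2 septins higher each time, 4 to 5 lower, and 5077 to 6567 genes called over the table. Without a library the log2 fold change ran from 1.07 to 1.15 for SEPT9, 0.76 to 0.86 for SEPT1, -1.32 to -1.12 for SEPT3, -1.03 to -0.85 for SEPT11, -0.42 to -0.21 for SEPT7 and -0.25 to -0.17 for SEPT6. With no low-count filter, 5 septins were lower, without SEPT6.

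With the replicate number as a block the septin counts were 2 higher and 6 lower, as without it, and 6979 genes were called; ROCK1 joined TSG101 as higher in the cytokinesis list (2 in all), with 16 lower in place of 14. The edgeR adjusted p with the block was 0.00175 for SEPT7 and 0.0155 for SEPT6, beside 0.0255 and 0.0323 without it. The replicate numbers were not shown to pair the samples. The sample descriptions share a tag between same-numbered libraries without saying what it marks. Deviations of same-numbered libraries correlated at 0.374, 0.085 and 0.178, and ML141 replicate 2 correlated best with DMSO replicate 3 (0.291). With 3 libraries per group these correlations cannot decide whether the numbers mark shared experiments.

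Among genes that act with septins, the partner list had 5 lower with upper-quartile factors and with library totals, and without single libraries 4 to 7 higher and 5 to 9 lower. The cytokinesis list had 2 higher with upper-quartile factors, library totals, no filter or the stricter filter, and 1 to 2 without single libraries. The cause was not tested.

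The change in the share of septin counts, in percentage points, depends on whether length is divided out and on which length is used. Per kilobase of exons it was 3.13 for SEPT1, -0.962 for SEPT3, -1.003 for SEPT6, -1.41 for SEPT8, 13.9 for SEPT9 and -6.39 for SEPT11, against 0.804, -1.17, -1.76, -1.88, 20.4 and -9.30 from raw counts, by construction of the measure. Division by the median transcript length was an alternative chosen after seeing the data, like those for the partner lists. On that scale the change was 1.52 for SEPT1, -0.885 for SEPT3, -2.07 for SEPT6, -2.01 for SEPT8 and -10.9 for SEPT11. For SEPT9 it was 20.5, close to the 20.4 from raw counts.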
